A study of Mus musculus with 6 samples.

Results

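The genes described here are 10 markers of neurogenesis and immature neurons, taken by gene symbol from a given list: *Nes*, *Eomes*, *Neurod1*, *Sox4*, *Sox11*, *Dcx*, *Tubb3*, *Igfbpl1*, *Draxin*, and *Calb2*. That list was chosen with earlier results of these data known. All 10 were found among the 14477 genes in the deposited RNA-Seq values from mouse hippocampus, where 1 library of total RNA depleted of ribosomal RNA was made per untreated mouse. The mutants were homozygous for a CRISPR/Cas9 deletion in exon 4 of *Phf21b* that is present in the whole body and that the study describes as lowering *Phf21b* rather than abolishing it (Phf21bΔ4/Δ4, replicates 2, 3, and 6), and the controls were Phf21b+/+ mice (replicates 5, 7, and 8), all on a C57BL/6J background. The study's methods give young adult male and female littermates for its experiments and no sex for these 6 mice. *Xist*, the RNA of the inactive X chromosome, lay between 86.9 and 216 CPM (read counts scaled to library size, the unit of all levels here) in all 6 mice, and none of 4 Y-linked genes looked for was listed.

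Neurons are born throughout life in the subgranular zone of the dentate gyrus. Radial glia-like stem cells divide slowly and give rise to intermediate progenitors, these to neuroblasts, and the neuroblasts to immature neurons that extend a dendrite and an axon before they mature into granule cells. Each stage switches on transcription factors, cytoskeletal proteins, and secreted factors by which it is commonly recognized, and such cells are a small part of an adult hippocampus. The study reports fewer cells stained for DCX in the dentate gyrus of Phf21bΔ4/Δ4 mice. That is a count of cells by protein in part of the hippocampus, while the values here are RNA levels of hippocampal tissue. The count raises the question of how the transcripts of this and related markers compare between the genotypes. In RNA from whole tissue, fewer cells of a type and less RNA per cell cannot be told apart.

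None of the 10 genes was past the thresholds of the study's methods (FDR under 0.1 and a fold change above 1.3) by limma's moderated test with Benjamini-Hochberg adjustment over all 14477 genes. Over all genes, 176 (1.22%) were past both thresholds, so a count of 0 among 10 is near the background. At an unadjusted p under 0.05 there were 5 of the 10 genes, 4 lower and 1 higher in Phf21bΔ4/Δ4 mice, against 23.6% of all genes. The voom method of limma, run on reads worked out from the values, also called 0 of the 10 and had 4 at an unadjusted p under 0.05. Mean log2 levels were lower in Phf21bΔ4/Δ4 mice for 8 of the 10 genes and higher for 2, with a median log2 change of -0.48 where the median over all genes was -0.02. In 3 genes (*Calb2*, *Neurod1*, and *Draxin*) every Phf21bΔ4/Δ4 mouse lay below every Phf21b+/+ mouse, and in none did every one lie above. Such a lack of overlap was present in 31.0% of all genes, with the Phf21bΔ4/Δ4 mice below in 16.0% and above in 15.0%. An exact permutation test on 3 mice against 3 cannot give a p below 0.1, and it gave 0.1 for each of these 3 genes.

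Reads on the listed genes came to between 20495605 and 24881257 per mouse. For the targeted gene *Phf21b*, the mutants averaged 3.20 ± 0.919 CPM and the controls 6.07 ± 0.724 CPM (SD, n = 3 each), with no overlap (FDR 0.141, limma). The libraries also differed in genes that are used as markers of neighbouring tissue. All 12 genes of a medial habenula list were called lower. Their summed level was 7.13 to 11.1 CPM in Phf21bΔ4/Δ4 mice and 171 to 240 CPM in Phf21b+/+ mice. Of these genes, 4 (*Pou4f1*, *Chat*, *Slc18a3*, and *Irx2*) had at most 3 reads in each Phf21bΔ4/Δ4 mouse. The list was chosen with earlier results of these data known. Most of its genes are among those the study reports as differing between the genotypes in the same libraries. The count of calls in this list is therefore not an independent result about tissue content. The 8 genes of a choroid plexus list summed to 15710 CPM in Phf21b+/+ replicate 7 and 976 CPM in replicate 8, and to between 23.1 and 81.4 CPM in the other 4 mice.

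**Figure D1:**
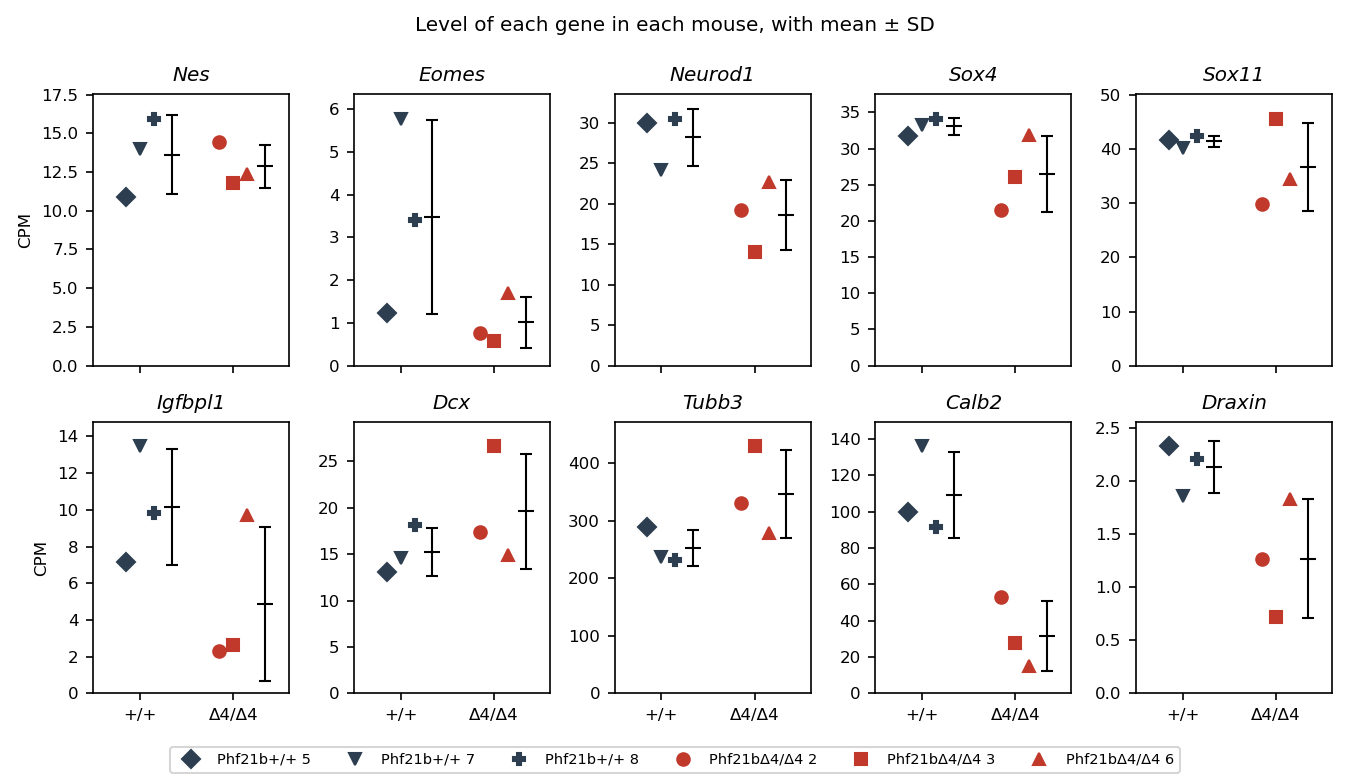
Level of each of the 10 genes in CPM (linear axis from 0) in each of the 3 Phf21b+/+ and 3 Phf21bΔ4/Δ4 mice, one symbol per mouse, with the mean and SD of each genotype beside the points. The genotypes are separate for *Calb2*, *Neurod1*, and *Draxin*, and Phf21bΔ4/Δ4 replicate 6 lies among the Phf21b+/+ mice for *Igfbpl1* and *Eomes*.

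The order of the genes by level was set by CPM per kb of merged exons, since longer transcripts collect more reads. In Phf21b+/+ mice *Tubb3* was highest at 135 ± 16.8 CPM per kb, followed by *Calb2* at 62.6 ± 13.5, *Neurod1* at 10.3 ± 1.3, *Sox4* at 6.90 ± 0.250, *Sox11* at 4.99 ± 0.132, *Igfbpl1* at 3.13 ± 0.972, *Nes* at 2.12 ± 0.396, *Dcx* at 1.21 ± 0.206, *Eomes* at 0.837 ± 0.547, and *Draxin* at 0.409 ± 0.0467 (SD, n = 3 each). Neighbours in this order overlapped between mice for *Igfbpl1* and *Nes*, for *Dcx* and *Eomes*, and for *Eomes* and *Draxin*, and the other neighbours did not. A level of 1 CPM was reached by 8 of the 10 genes in every mouse and by the other 2, *Eomes* and *Draxin*, in 2 or more mice.

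*Nes*, which lies on chromosome 3 of GRCm38 from 87971078 to 87980451, encodes nestin, an intermediate filament protein of neural stem cells that is also made in blood vessels. Its levels were 14.4, 11.8, and 12.4 CPM in Phf21bΔ4/Δ4 replicates 2, 3, and 6 and 10.9, 14.0, and 16.0 CPM in Phf21b+/+ replicates 5, 7, and 8. The mutants lay within the range of the controls. The log2 change was -0.07 with a 95% interval from -0.47 to 0.33 (FDR 0.807, limma), and it took the other sign, 0.05, with quantile normalization and again without Phf21b+/+ replicate 8. The 9 genes of an endothelial cell and pericyte list were all higher on average in Phf21bΔ4/Δ4 mice, 0 of them called, and their sum was 239 to 367 CPM there and 169 to 231 CPM in Phf21b+/+ mice. The part of vessel content in the *Nes* level was not tested.

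*Eomes*, on chromosome 9 from 118478212 to 118486132, encodes TBR2, the transcription factor that defines intermediate progenitors. Replicates 2, 3, and 6 of the mutants had 18, 12, and 39 reads on it and replicates 5, 7, and 8 of the controls had 26, 137, and 76, or 0.759, 0.572, and 1.70 CPM against 1.23, 5.78, and 3.42 CPM. Phf21bΔ4/Δ4 replicate 6 was above Phf21b+/+ replicate 5, so the genotypes overlapped, and the controls were spread more widely than the mutants. *Eomes* had a log2 change of -1.68 (standard error 0.65, 95% interval from -3.24 to -0.12, FDR 0.193 by limma). Leaving out Phf21b+/+ replicate 7, which had the highest *Eomes* level and the most choroid plexus RNA, moved it to -1.18, while it was -2.29 without Phf21b+/+ replicate 5 (FDR 0.138) and -2.13 without Phf21bΔ4/Δ4 replicate 6 (FDR 0.0857, limma). Whether choroid plexus content had a part in the *Eomes* level was not tested. *Eomes* overlaps an antisense gene on the other strand, which was not listed.

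*Neurod1*, on chromosome 2 from 79452521 to 79456751, encodes a basic helix-loop-helix factor that late progenitors and neuroblasts need to become granule cells and that granule cells keep at a lower level. It had 19.2, 14.0, and 22.7 CPM in the Phf21bΔ4/Δ4 mice and 29.9, 24.1, and 30.5 CPM in the Phf21b+/+ mice, given here and below in the order of replicates 2, 3, and 6 and of replicates 5, 7, and 8. The highest mutant was just below the lowest control. The log2 change of *Neurod1* was -0.62 (standard error 0.19, 95% interval from -1.08 to -0.16, FDR 0.156 by limma). *Neurod1* lies inside the span of *Cerkl* on the same strand and overlaps a noncoding gene on the other strand, and the strandedness of the counting is not given in the sources used here.

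*Sox4* and *Sox11* are single-exon genes that encode SOXC factors, which act in turn on immature neuron genes such as *Dcx* and *Tubb3*. *Sox4*, on chromosome 13 from 28948919 to 28953713, had 21.5, 26.1, and 31.9 CPM in the Phf21bΔ4/Δ4 mice and 31.8, 33.3, and 34.2 CPM in the Phf21b+/+ mice. Only Phf21bΔ4/Δ4 replicate 6 reached the controls. *Sox4* overlaps a noncoding gene on the other strand, which was not listed. *Sox11*, on chromosome 12 from 27334264 to 27342574, had 29.9, 45.7, and 34.6 CPM in the mutants and 41.6, 40.3, and 42.4 CPM in the controls. For *Sox11* the mutants lay on both sides of the controls, with replicate 3 the highest of all 6 mice. The log2 changes were -0.34 for *Sox4* (95% interval from -0.69 to 0.01, FDR 0.219) and -0.20 for *Sox11* (95% interval from -0.56 to 0.17, FDR 0.442, limma). The SD of the log2 level was 0.31 in Phf21bΔ4/Δ4 mice and 0.04 in Phf21b+/+ mice for *Sox11*, and 0.29 and 0.05 for *Sox4*. The third gene of the SOXC family, *Sox12*, had a log2 change of 0.10 (FDR 0.615, limma).

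The promoters of both SOXC genes and of *Eomes* are shown because *Sox4* and *Sox11* are relatives with different levels in the same mice and *Eomes* had the most negative log2 change among the genes with a promoter entry. They are RefSeq sequences of GRCm38.p6, read 5′ to 3′ on the strand of the gene, up to the transcription start or the first base of an annotated exon, and capitals mark an E-box CAGCTG, the kind of site basic helix-loop-helix factors bind.
Sox4, chr13:28953714-28953949, minus strand: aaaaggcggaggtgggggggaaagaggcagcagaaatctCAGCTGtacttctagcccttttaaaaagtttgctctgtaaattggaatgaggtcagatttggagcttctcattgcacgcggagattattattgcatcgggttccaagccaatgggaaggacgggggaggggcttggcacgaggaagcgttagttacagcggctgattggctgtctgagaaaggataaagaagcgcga
Sox11, chr12:27342719-27342968, minus strand: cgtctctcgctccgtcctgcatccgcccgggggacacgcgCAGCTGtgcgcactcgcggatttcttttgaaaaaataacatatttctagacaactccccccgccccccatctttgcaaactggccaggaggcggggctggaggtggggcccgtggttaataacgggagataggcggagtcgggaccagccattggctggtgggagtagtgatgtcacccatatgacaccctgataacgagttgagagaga
Eomes, chr9:118477939-118478188, plus strand: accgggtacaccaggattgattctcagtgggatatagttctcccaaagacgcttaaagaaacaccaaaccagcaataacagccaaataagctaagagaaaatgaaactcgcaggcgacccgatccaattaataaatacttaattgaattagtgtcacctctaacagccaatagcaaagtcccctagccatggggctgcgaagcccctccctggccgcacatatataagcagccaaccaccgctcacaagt
The windows searched ran from 250 bases before to 50 bases after each start, and 8 of the 10 genes had 1 or more of them, 9 in all. CAGCTG was found in 1 window each of *Sox4*, *Sox11*, and *Draxin*, and in 16.3% of the 32851 windows of all genes. The cyclic AMP response element TGACGTCA, its core TGACG, and the E-box CAGATG, searched on both strands, were in none of the 9 windows, and in 1.79%, 20.8%, and 17.2% of all windows. ACAAAG, a site for SOX factors, was in 1 of the 2 *Dcx* windows and in the *Draxin* window, and in 18.7% of all windows. These letters describe the windows and are not a measure of binding.

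*Dcx*, on the X chromosome from 143855842 to 143933311, encodes doublecortin, a microtubule-binding protein of migrating neuroblasts and immature neurons. Its levels were 17.4, 26.6, and 14.9 CPM in the Phf21bΔ4/Δ4 mice and 13.1, 14.6, and 18.2 CPM in the Phf21b+/+ mice. Phf21bΔ4/Δ4 replicate 3 was above all other mice, and the other mutants lay within the range of the controls. The log2 change of *Dcx* was 0.33 with a 95% interval from -0.23 to 0.89 (FDR 0.401, limma), and without replicate 3 it was 0.09. The related doublecortin-like kinase genes *Dclk1* and *Dclk2*, which mature neurons also express, had log2 changes of 0.49 (FDR 0.193) and 0.32 (FDR 0.165, limma).

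*Tubb3*, on chromosome 8 from 123411424 to 123422015, encodes the neuronal class III β-tubulin, which appears in new neurons and stays on in mature ones. It had 332, 430, and 279 CPM in the Phf21bΔ4/Δ4 mice and 289, 237, and 232 CPM in the Phf21b+/+ mice. Replicates 2 and 3 were above the controls, while replicate 6 was below Phf21b+/+ replicate 5. *Tubb3* had a log2 change of 0.44 (standard error 0.17, 95% interval from 0.03 to 0.85, FDR 0.192 by limma). The other neuronal β-tubulin genes looked at, *Tubb2b* and *Tubb4a*, had log2 changes of 0.17 (FDR 0.370) and 0.56 (FDR 0.190, limma). *Tubb3* lies in the span of the predicted readthrough gene *Gm20388* on the same strand, which was not listed.

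*Igfbpl1*, on chromosome 4 from 45809468 to 45826923, encodes a secreted relative of the insulin-like growth factor binding proteins that marks neuroblasts and young neurons. It had 55, 55, and 223 reads in the Phf21bΔ4/Δ4 mice and 151, 319, and 219 reads in the Phf21b+/+ mice, or 2.32, 2.62, and 9.70 CPM against 7.17, 13.5, and 9.84 CPM. Replicates 2 and 3 were below all controls, while replicate 6 was at the level of Phf21b+/+ replicate 8. The log2 change of *Igfbpl1* was -1.34 (standard error 0.56, 95% interval from -2.67 to -0.002, FDR 0.211 by limma), and it was -1.99 without replicate 6 and -0.96 without replicate 2. Of genes in the insulin-like growth factor pathway, *Igf1*, the ligand, had a log2 change of 0.81 with no overlap between genotypes (FDR 0.116, limma). *Igf1r*, the receptor, had a log2 change of 0.07 (FDR 0.689, limma).

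*Draxin*, on chromosome 4 from 148098437 to 148130698, encodes a secreted guidance protein that binds the netrin receptor DCC and restrains Wnt signaling. It had 30, 15, and 42 reads in the Phf21bΔ4/Δ4 mice and 49, 44, and 49 reads in the Phf21b+/+ mice. In CPM these were 1.27, 0.714, and 1.83 against 2.33, 1.86, and 2.20. The genotypes did not overlap, but replicate 6 lay just below the lowest control. The log2 change of *Draxin* was -0.84 (standard error 0.38, 95% interval from -1.74 to 0.06, FDR 0.230 by limma), and it was -1.15 without replicate 6 and -0.48 without replicate 3. The 5′ end of *Draxin* overlaps *Mad2l2* on the other strand.

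*Calb2*, on chromosome 8 from 110137502 to 110168210, encodes calretinin, a calcium-binding protein that young granule cells make briefly after they leave the cell cycle and that certain interneurons, mossy cells, Cajal-Retzius cells, and neurons of the thalamus and habenula make permanently. It had 52.8, 27.8, and 14.8 CPM in the Phf21bΔ4/Δ4 mice and 99.7, 136, and 91.6 CPM in the Phf21b+/+ mice. The highest mutant was well below the lowest control, and replicate 6 was the lowest of the mutants. *Calb2* had the lowest FDR of the 10 genes, with a log2 change of -1.94 (standard error 0.43, 95% interval from -2.98 to -0.91, FDR 0.131 by limma). *Calb1*, for the calbindin of mature granule cells, had a log2 change of -0.25 (FDR 0.210, limma).

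Besides the medial habenula list, 9 of 9 genes of a thalamus list that holds *Calb2* itself were lower on average in Phf21bΔ4/Δ4 mice, and 2 of them (*Tcf7l2* and *Zic1*) were called. Without *Calb2* the other 8 summed to 128, 226, and 229 CPM in the mutants and 658, 611, and 404 CPM in the controls. Of the Cajal-Retzius list, 5 of 7 genes were listed and 0 called, and the defining genes *Lhx1* and *Lhx5* were not listed. The listed genes were on both sides of 0, with *Ebf3* at -2.03 (FDR 0.135), *Trp73* at -1.52 (FDR 0.181), and *Cacna2d2* at -0.59 (FDR 0.258), and with *Ndnf* at 0.77 (FDR 0.116) and *Reln* at 0.84 (FDR 0.205, limma). The 10 genes of a GABAergic interneuron list were all higher on average, with *Gad2* called and a sum of 985 to 1073 CPM against 661 to 744 CPM. The part of any of these tissues and cells in the *Calb2* difference was not tested.

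**Figure D2:**
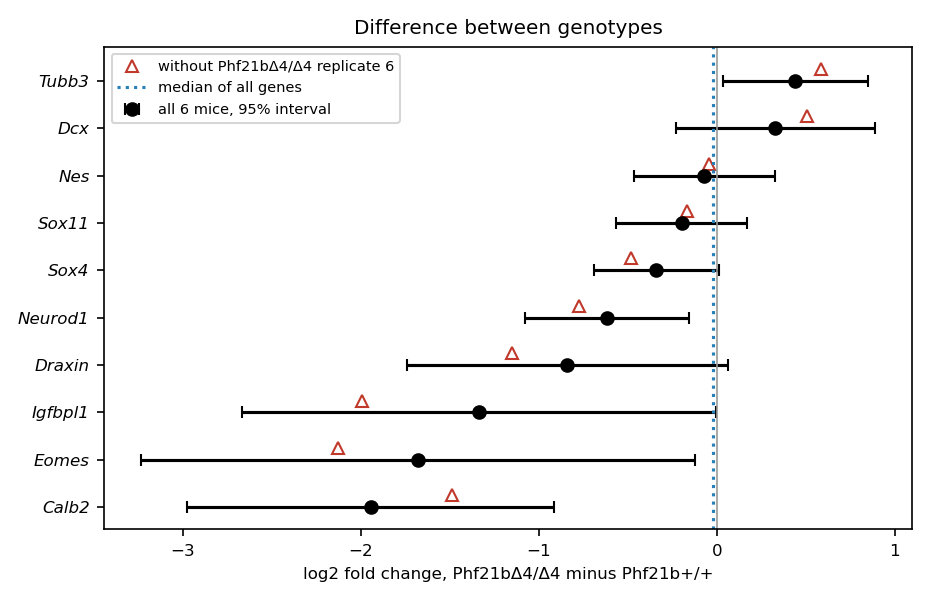
Log2 fold change of each gene (Phf21bΔ4/Δ4 minus Phf21b+/+) with its 95% interval from limma on all 6 mice (circles), the estimate without Phf21bΔ4/Δ4 replicate 6 (open triangles), and the median of all genes (dotted line, -0.02). *Calb2* is at -1.94 and *Tubb3* at 0.44, and leaving out replicate 6 moves *Igfbpl1* from -1.34 to -1.99.

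Among the Phf21bΔ4/Δ4 mice, replicate 6 was the closest to the Phf21b+/+ mean in 7 of the 10 genes. Over all genes the share was 52.0%, and it was 26.3% for replicate 2 and 21.7% for replicate 3. In the limma fit without replicate 6, 7 of the 10 genes were past both thresholds, 6 of them lower (*Calb2*, *Igfbpl1*, *Eomes*, *Draxin*, *Neurod1*, and *Sox4*) and 1 higher (*Tubb3*). The background also grew in that fit, to 2830 genes or 19.5% of all genes, and the mutants were then 2 mice. The same 7 genes were called when the mice were weighted by limma's arrayWeights, with a background of 24.5%. That fit gave most weight to Phf21b+/+ replicate 8 (4.63) and Phf21bΔ4/Δ4 replicate 2 (2.04), and low weights to Phf21bΔ4/Δ4 replicate 6 (0.343), Phf21b+/+ replicate 7 (0.553), and Phf21bΔ4/Δ4 replicate 3 (0.554). *Dcx*, *Sox11*, and *Nes* were past the thresholds in none of the fits.

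Dentate granule cell markers also set replicates 2 and 3 apart from replicate 6. The 8 genes of that list summed to 184, 191, and 588 CPM in Phf21bΔ4/Δ4 replicates 2, 3, and 6 and to 747, 644, and 653 CPM in Phf21b+/+ replicates 5, 7, and 8. All 8 were lower on average in Phf21bΔ4/Δ4 mice, with a median log2 change of -1.46, and 1 of them (*Pdzd2*) was called. *Prox1*, the transcription factor that granule cells keep from the neuroblast stage on, had 50.4, 44.4, and 110 CPM in the mutants and 149, 115, and 134 CPM in the controls, a log2 change of -1.08 (FDR 0.155, limma). Relative to the summed granule markers, as CPM of the gene per 1000 CPM of the markers, *Igfbpl1* was 12.6 to 16.5 in Phf21bΔ4/Δ4 mice and 9.59 to 20.9 in Phf21b+/+ mice. On that scale, which was chosen after the values were seen, *Eomes* was 2.88 to 4.12 and 1.65 to 8.98, *Neurod1* was 38.5 to 104 and 37.4 to 46.8, and *Draxin* was 3.10 to 6.87 and 2.88 to 3.37. *Calb2* was 286, 145, and 25.2 in Phf21bΔ4/Δ4 replicates 2, 3, and 6 and 134 to 211 in Phf21b+/+ mice, so that replicate 6 remained below every control. On that scale the genotypes overlapped for 8 of the 10 genes, and the Phf21bΔ4/Δ4 mice were above the Phf21b+/+ mice for *Sox4* and *Tubb3*. The share of all genes without overlap on that scale was not worked out. With summed markers of 184 and 191 CPM in replicates 2 and 3, a gene of unchanged CPM is raised there by the division. Neither the separation of *Sox4* and *Tubb3* nor the overlap of the other 8 genes on that scale is therefore read as a result about these genes. The part of granule cell content in the levels of these genes was not tested.

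**Figure D3:**
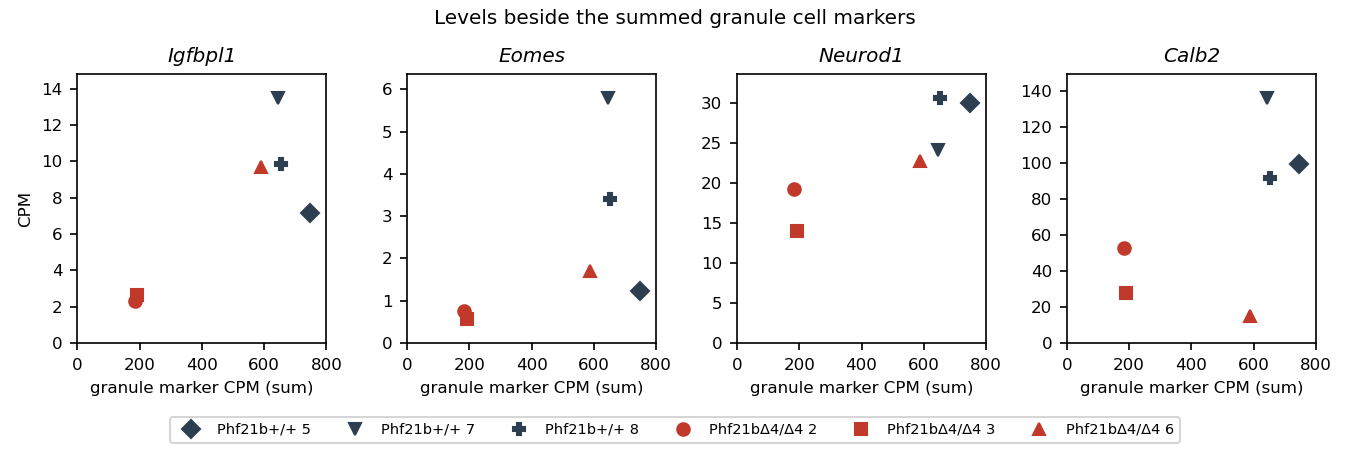
CPM of *Igfbpl1*, *Eomes*, *Neurod1*, and *Calb2* (vertical axes, linear from 0) against the summed CPM of the 8 dentate granule cell markers (horizontal axes) in each of the 6 mice. Phf21bΔ4/Δ4 replicates 2 and 3 lie at 184 and 191 CPM of granule markers and replicate 6 at 588 CPM, near the Phf21b+/+ mice, where its *Igfbpl1* level is 9.70 CPM and its *Calb2* level is 14.8 CPM.

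Neuroblasts bound for the olfactory bulb share *Dcx*, *Sox11*, *Sox4*, and *Igfbpl1* with those of the hippocampus. Of 8 genes on a list for the subventricular zone and olfactory neuroblasts, 7 were listed and 0 called. On average 4 of these were higher and 3 lower, from *Sp8* at -1.06 (FDR 0.419) to *Dlx2* at 1.16 (FDR 0.165, limma). Their sum was 32.1 to 33.1 CPM in Phf21bΔ4/Δ4 mice, within the 23.6 to 43.0 CPM of the Phf21b+/+ mice, and a sum does not show such opposite changes. The 6 genes of an ependymal cell list were all lower on average in Phf21bΔ4/Δ4 mice, 0 of them called, at 18.0 to 52.5 CPM against 55.9 to 187 CPM.

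**Figure D4:**
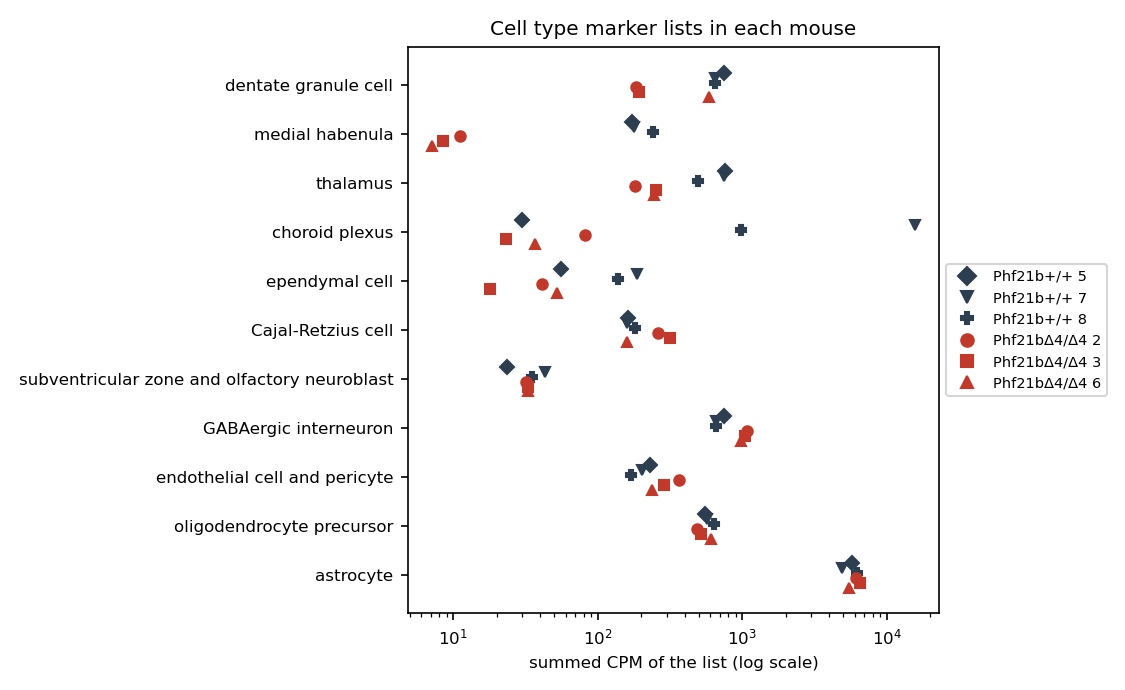
Summed CPM (logarithmic axis) of the 11 cell type marker lists in each of the 6 mice, with one symbol per mouse. The medial habenula list is at 7.13 to 11.1 CPM in Phf21bΔ4/Δ4 mice and 171 to 240 CPM in Phf21b+/+ mice, and the granule cell list sets Phf21bΔ4/Δ4 replicates 2 and 3 apart from the other 4 mice.

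The wider set of neurogenesis genes held 6 lists by stage and role, and 73 of their 77 genes were listed. None of the 73 was past both thresholds by limma or by voom. At an unadjusted p under 0.05 by limma were 25 of them, 18 higher and 7 lower in Phf21bΔ4/Δ4 mice, where the share over all genes was 23.6%. The genotypes did not overlap in 26 of the 73, with the Phf21bΔ4/Δ4 mice above in 16 and below in 10, where the shares over all genes were 31.0%, 15.0%, and 16.0%. Their median log2 change was 0.12, on the other side of 0 from the median of the 10 genes.

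Of 14 radial glia-like stem cell genes, 11 were lower on average (median log2 change -0.14), and the lowest p-values were those of *Id4*, an inhibitor of differentiation, at -0.75 (FDR 0.127) and *Vim*, the filament protein vimentin, at -1.07 (FDR 0.133, limma). *Vim* had 30.4, 22.0, and 42.1 CPM in the Phf21bΔ4/Δ4 mice and 52.3, 75.2, and 66.6 CPM in the Phf21b+/+ mice, with no overlap. *Gfap*, which stem cells share with astrocytes and whose protein the study stained, had a log2 change of -0.70 (FDR 0.165, limma). Of 8 astrocyte genes, *Gfap* among them, 5 were lower and 3 higher on average. Only *Aqp4* was called, and it was lower at -0.68 (FDR 0.0669, limma). The astrocyte sums overlapped, at 5507 to 6514 CPM in Phf21bΔ4/Δ4 mice and 4906 to 6227 CPM in Phf21b+/+ mice. None of 8 oligodendrocyte precursor genes was called, with sums of 486 to 607 CPM and 551 to 635 CPM. Of 10 listed cell division genes, 6 were lower and 4 higher on average (median -0.27). The lowest p-values were those of the cyclin gene *Ccnd1*, which was higher at 0.65 (FDR 0.133), and the thymidylate synthase gene *Tyms*, which was lower at -0.84 (FDR 0.133, limma). Of 12 listed intermediate progenitor and neuroblast genes, 7 were higher and 5 lower on average (median 0.19), and besides *Prox1* the lowest p-values included that of *Btg2*, an antiproliferative gene of progenitors, at -0.62 (FDR 0.116, limma). The relatives of *Neurod1* with roles in mature neurons, *Neurod2* and *Neurod6*, had log2 changes of -0.34 (FDR 0.378) and 0.39 (FDR 0.382, limma).

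Of 18 immature neuron cytoskeleton and surface genes, 14 were higher on average in Phf21bΔ4/Δ4 mice (median log2 change 0.34), 8 of them and none of the 4 lower ones at an unadjusted p under 0.05. Over all 14477 genes, 1685 were higher and 1736 lower at that p. The lowest p-values were those of *Crmp1*, a collapsin response mediator of growth cones, at 0.43 (FDR 0.140), and *Basp1*, a growth cone membrane protein, at 0.45 (FDR 0.151, limma). The 4 lower genes were *St8sia2* at -0.86 (FDR 0.265), *Cd24a* at -0.79 (FDR 0.218), *Nrep* at -0.33 (FDR 0.568), and *Marcksl1* at -0.09 (FDR 0.696, limma). *Crmp1* had 224, 197, and 204 CPM in the Phf21bΔ4/Δ4 mice and 176, 135, and 154 CPM in the Phf21b+/+ mice, with no overlap. Of 11 listed signals and receptors, 8 were higher on average (median 0.22), and besides *Igf1* the lowest p-values included that of *Cxcr4*, a chemokine receptor of neuroblasts, at -0.71 (FDR 0.165, limma). Of 8 mature neuron genes, 7 were higher on average (median 0.30), with *Nefm* at 0.57 (FDR 0.135) and *Rbfox3*, the gene for NEUN, at 0.24 (95% interval from -0.02 to 0.50, FDR 0.236, limma).

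**Figure D5:**
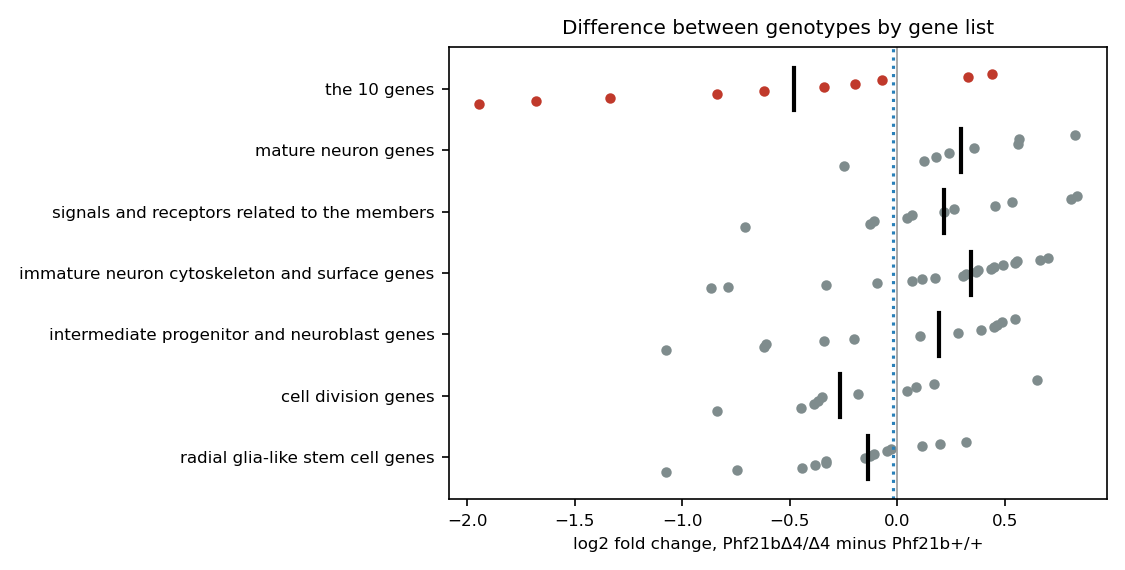
Log2 fold change (Phf21bΔ4/Δ4 minus Phf21b+/+) of every listed gene in the 6 lists and of the 10 genes, one point per gene, with a bar at the list median and a dotted line at the median of all genes. List medians run from -0.27 for cell division genes to 0.34 for immature neuron cytoskeleton and surface genes, and that of the 10 genes is -0.48.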

How the data were processed

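Hippocampal RNA from 3 Phf21bΔ4/Δ4 and 3 Phf21b+/+ mice was compared, with groups taken from the sample labels. The authors trimmed reads with Trimmomatic 0.39, mapped them to GRCm38 with STAR 2.7.3a, counted them per gene with featureCounts (Subread 1.6.4), filtered low genes, and deposited log2 CPM values normalized with edgeR. The prior count and strandedness are not given in the sources used here. The lowest value stood for 0 reads, and with that prior taken off, 100.0% of values came within 0.1 of a whole read. CPM, reads, and voom rest on these.

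These deposited log2 values were fitted by genotype in limma 3.58.1 under R 4.3.3 (lmFit, eBayes with a trend), with Benjamini-Hochberg adjustment over all 14477 genes, 2-sided. The authors tested with edgeR on their counts, which were not used here. The fit was tested on simulated data with noise drawn separately for each gene. It recovered 71 of 100 genes changed 2-fold and 91 of 100 changed 4-fold, and it called 21 other genes. Such a simulation holds no differences between mice that many genes share, so it cannot show how the fit handles them. Positions and exon lengths come from GENCODE M21 on GRCm38, where the authors used release M24. The limma p-values set the difference between genotypes against the spread between these mice, moderated over all genes. They cannot separate genotype from other differences that go with it in these mice.

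The 10 genes, 6 neurogenesis lists, and 12 marker lists (11 cell type lists and 1 for sex) were chosen with earlier results of these data known. Named besides the 10 genes were, per list, those with the lowest 2 p-values, relatives of the 10, *Rbfox3*, *Gfap*, *Prox1*, *Phf21b*, and defining markers. Members of marker lists that were called or near 0, the Cajal-Retzius genes, the lower immature neuron cytoskeleton and surface genes, *Igf1r*, *Sp8*, *Dlx2*, and *Xist* are named after their values were seen.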

Additional observations from a re-analysis of the deposited data

How the results depend on the processing

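Depth limits *Eomes* and *Draxin*, with as few as 12 reads in a mouse, and 3 mice per genotype limit the precision of all 10 genes. Under an FDR of 0.05, no fold threshold, the same prior variance for all genes, robust empirical Bayes, a mean log2 CPM of at least 1 (which left 2 of the 10 genes untested), log2(CPM + 1), log2(CPM + 0.1), quantile normalization, centring on the median, and voom, 0 of the 10 genes were past the thresholds. Weighting by arrayWeights gave 7, and leaving out each mouse gave 0 to 7, the 7 coming without Phf21bΔ4/Δ4 replicate 6. Among the 73 wider genes there were 0 in the fit reported, 1 (*Tyms*) with the same prior variance for all genes, 32 with arrayWeights, and 0 to 27 with each mouse left out, again 27 without replicate 6. The count over all genes was 176, and it was 75 with the same prior variance for all genes, 101 with the mean filter, 25 at an FDR of 0.05, 3549 with arrayWeights, and 9 to 2830 with each mouse left out. Directions of the 10 genes were kept in these fits except for *Nes*, which was 0.05 with quantile normalization and ranged from -0.22 to 0.05 with each mouse left out. *Tbr1*, a relative of *Eomes*, was 0.49 in the fit reported, -0.12 with arrayWeights, and -0.13 to 0.92 with each mouse left out. The causes of these shifts were not tested. On CPM, 3 of the 10 genes had no overlap (all lower). Divided by granule markers, an alternative added after the data were seen, these 3 overlapped and 2 others (*Sox4* and *Tubb3*, higher) did not. No share over all genes was worked out for that division, and neither this overlap nor this separation is read as a result about these genes. No paired analysis was made because the sample labels give no litter or pairing of the mice.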

Other observations

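The 10 genes ordered the Phf21bΔ4/Δ4 mice differently. Replicate 3 had the highest level of the 3 for *Dcx* (26.6 CPM), *Sox11* (45.7 CPM), and *Tubb3* (430 CPM) and the lowest for *Neurod1* (14.0 CPM), *Eomes* (0.572 CPM), *Draxin* (0.714 CPM), and *Nes* (11.8 CPM). The same mouse had 57.7 CPM of *Tbr1*, a transcription factor of cortical projection neurons, where the other 5 mice had between 13.5 and 21.3 CPM. Its 18 immature neuron cytoskeleton and surface genes summed to 4297 CPM, of which 1210 CPM were *Dclk1*. The sums were 3791 and 2866 CPM in replicates 2 and 6 and 2369 to 2908 CPM in the Phf21b+/+ mice. For the 5 listed Cajal-Retzius genes the sum in replicate 3 was 318 CPM, also the highest of the 6 mice. The others had between 158 and 259 CPM. The median log2 change of that list was -0.59, with 2 genes (*Ndnf* and *Reln*) higher and 3 lower on average, so the sum is not read as a level of these cells. The part of dissection in these values was not tested.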
